A study of Rattus norvegicus with 6 samples.

Results

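AP-1 and immediate early genes were followed here as 10 genes out of the 32623 in the table, picked by symbol: Fos, Fosb, Fosl1, Fosl2, Jun, Junb, Jund, Egr1, Ier2 and Ier3. Each symbol matched 1 row, and all 10 genes passed the filter on low counts. The libraries are 6 bulk RNA sequencing libraries of rat liver, of which 3 (GZM) followed embolization with zinc sulfide microspheres and 3 (GM, the control) followed embolization with blank microspheres. All 6 are thus from embolized tissue. The labels call every sample liver and give no strain, age, time after embolization or share of tumour, and they number replicate biosamples with no word on whether each came from its own animal. The p-values therefore measure only the spread between these samples, which may be technical.

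AP-1 is a transcription factor built as a pair of proteins that share a basic leucine zipper. A Jun protein (Jun, JunB, JunD) can pair with another Jun protein or with a Fos protein (Fos, FosB, Fra-1 from Fosl1, Fra-2 from Fosl2), whereas Fos proteins do not pair with each other in a stable way. Many of these genes are immediate early genes: growth factors, stress and injury switch them on through MAP kinases without new protein synthesis, and their transcripts decay quickly. In liver they are known from the first response to partial hepatectomy and from tumour growth, and Jun is needed for hepatocyte division.

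Library totals ran from 13443115 to 16604067 counts. Levels of a gene are given as CPM, its counts scaled to library size, with TMM factors that correct for differences in composition between libraries, and levels between genes are compared as FPKM, which also divides by exon length. The composition of the tissue differed between the groups. Summed over 10 hepatocyte markers the level was 118685 to 139354 CPM in GZM and 14916 to 52056 CPM in GM, and summed over 7 genes of cycling cells it was 194 to 215 CPM in GZM and 475 to 1142 CPM in GM. Macrophage markers (8 genes) summed to 1520 to 2105 CPM in GZM and 3162 to 5189 CPM in GM, T-cell markers (7 genes) to 89.0 to 256 CPM in GZM and 263 to 504 CPM in GM, and endothelial markers (6 of 7 genes matched) to 345 to 411 CPM in GZM and 154 to 272 CPM in GM. Ranges overlapped for neutrophil markers (7 genes, 52.2 to 89.0 CPM in GZM and 71.5 to 103 CPM in GM), for stellate cell and fibroblast markers (6 of 7 genes matched, 1709 to 3880 CPM in GZM and 3379 to 9319 CPM in GM) and for bile duct markers (5 genes, 118 to 194 CPM in GZM and 121 to 275 CPM in GM). No matched marker was at 0 in any library. In bulk tissue fewer cells of a type and less RNA per cell cannot be told apart, and the part that tissue composition has in the results below was not tested.

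Promoters are shown for 4 members, the 2 that fell (Fosl1, Fosb), 1 that rose (Jund) and the most variable one (Egr1), as 250 bases before and 50 bases after the RefSeq start on build GRCr8. RefSeq promoters matched 7 of the 10 members, all but Fos, Jun and Ier3. Capitals mark matches, on either strand, to any of 5 motifs: the AP-1 element TGACTCA, the cyclic AMP response element TGACGTCA, the CArG box bound by serum response factor, the EGR element GCGGGGGCG and TATAAA. No 2 matches overlapped.
Fosl1, chr1:212183635-212183934, plus strand: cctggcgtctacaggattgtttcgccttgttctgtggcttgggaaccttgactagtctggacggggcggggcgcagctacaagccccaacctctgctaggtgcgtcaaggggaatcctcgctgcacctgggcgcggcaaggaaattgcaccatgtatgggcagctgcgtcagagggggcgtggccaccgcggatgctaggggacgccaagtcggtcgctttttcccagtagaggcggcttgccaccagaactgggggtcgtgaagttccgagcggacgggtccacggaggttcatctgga
Fosb, chr1:88089135-88089434, minus strand: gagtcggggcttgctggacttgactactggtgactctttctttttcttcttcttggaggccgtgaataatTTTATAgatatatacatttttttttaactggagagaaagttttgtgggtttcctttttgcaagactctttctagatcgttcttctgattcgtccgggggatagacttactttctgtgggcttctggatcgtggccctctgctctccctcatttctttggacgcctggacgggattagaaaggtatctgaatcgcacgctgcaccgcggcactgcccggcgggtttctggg
Jund, chr16:18769722-18770021, minus strand: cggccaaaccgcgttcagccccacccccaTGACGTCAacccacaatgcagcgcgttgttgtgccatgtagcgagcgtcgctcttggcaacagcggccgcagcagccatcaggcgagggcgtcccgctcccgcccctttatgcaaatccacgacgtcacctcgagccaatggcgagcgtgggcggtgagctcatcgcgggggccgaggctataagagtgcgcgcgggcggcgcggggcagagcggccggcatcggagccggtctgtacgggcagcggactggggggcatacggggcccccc
Egr1, chr18:26736828-26737127, plus strand: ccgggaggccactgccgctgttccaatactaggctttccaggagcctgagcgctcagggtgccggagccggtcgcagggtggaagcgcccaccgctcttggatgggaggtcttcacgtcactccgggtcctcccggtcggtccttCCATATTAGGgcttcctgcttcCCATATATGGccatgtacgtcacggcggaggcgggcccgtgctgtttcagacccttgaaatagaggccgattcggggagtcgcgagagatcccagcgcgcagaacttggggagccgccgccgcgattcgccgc

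The Egr1 window held 2 CArG boxes, beginning at -105 and -83 from the start, and a CArG box was found in 1.64% of 33469 promoters of this length. TGACGTCA was present in the Jund and Ier2 windows and in 1.83% of all promoters. TGACTCA was in none of the 7 windows, against 4.63% of all promoters, a share at which 7 windows can easily hold none. Fos, Jun and Ier3 had no window to search. TATAAA was in the Junb and Fosb windows (14.2% of all), on the opposite strand in Fosb, and GCGGGGGCG in the Fosl2 window (2.73% of all). The Fosl1 window held none of the 5 motifs. These matches describe letters in a short window and say nothing of binding.

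The Fos family genes that passed the test fell, and the Jun family genes that passed rose. Fosl1 and Fosb were lower in GZM, by 18.2-fold and 4.75-fold, Jun and Jund were 2.02-fold and 2.04-fold higher, and Ier3 was 2.35-fold higher on the TMM scale. Fos, Fosl2, Junb, Egr1 and Ier2 did not pass. Calls are those of edgeR's quasi-likelihood test over 14298 genes, with the Benjamini-Hochberg adjusted p below 0.05. That makes 5 of 10 members called, against 44.0% of all genes tested, with 3 higher (22.2% of all genes) and 2 lower (21.7%), so the number called is near the background. For the same 5 members, 3 higher and 2 lower in GZM, the ranges of the groups were apart, and this held for 58.1% of all genes (28.4% higher, 29.7% lower). The median log2 fold change was 0.28 over the 10 members and -0.09 over all genes. The 3 rises depend on the scale: when libraries were scaled by their totals alone the median of all genes moved by -0.83, and 5 members passed, all lower (68.7% of all genes passed, 9.20% higher and 59.5% lower). Those 5 were the 4 Fos family genes and Ier2.

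**Figure D1:**
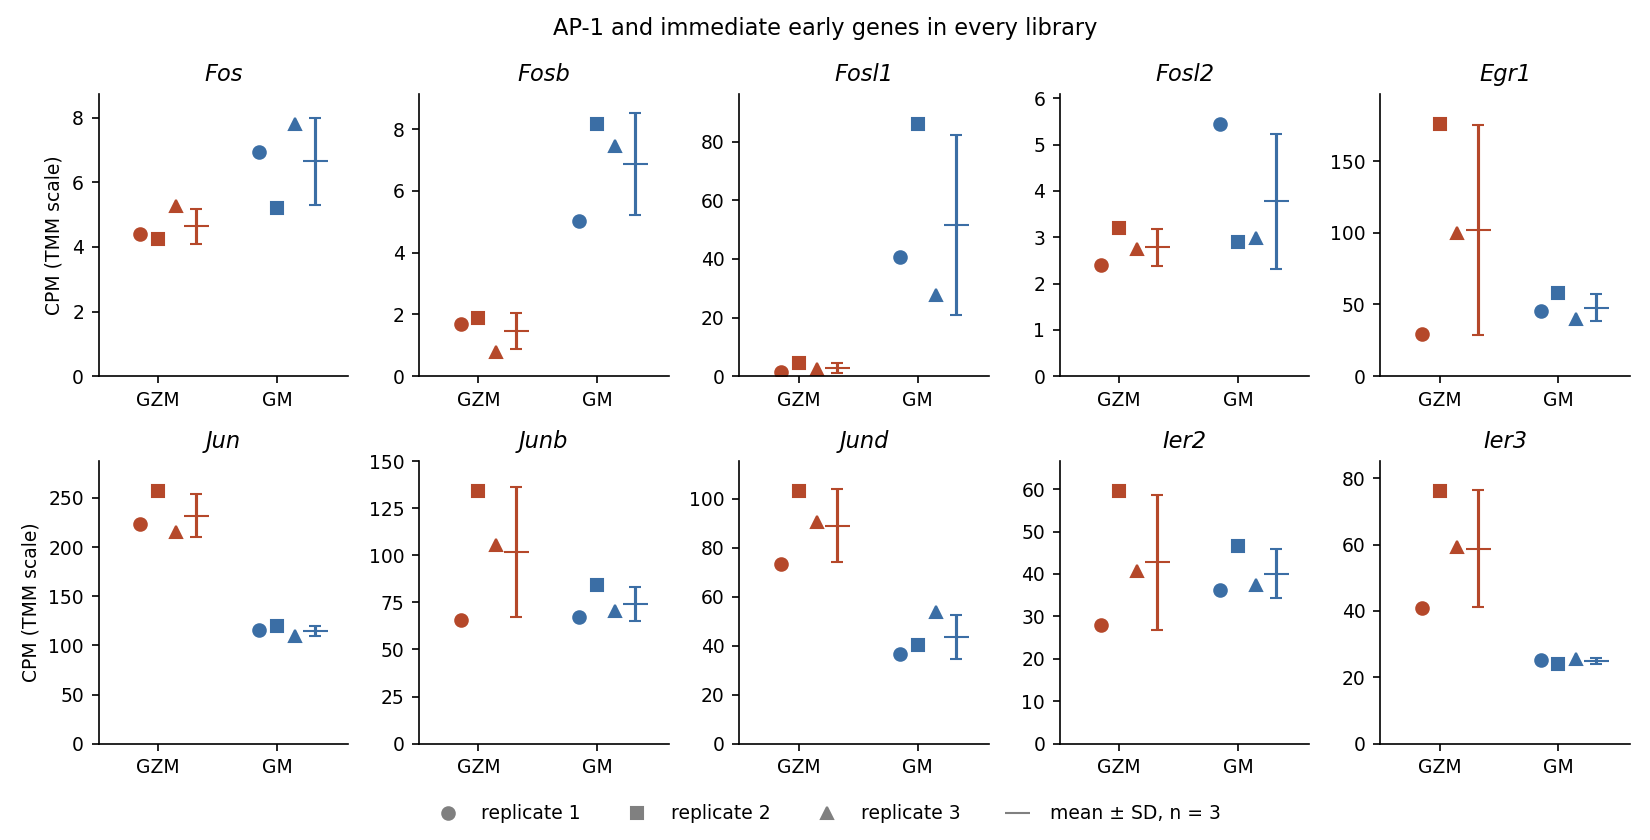
CPM on the TMM scale (y axis, starting at 0) of each of the 10 genes in the 3 GZM libraries (red, left) and the 3 GM libraries (blue, right), with symbols for the replicate number and bars for mean ± SD (n = 3). The GZM and GM points do not overlap for Fosl1, Fosb, Jun, Jund and Ier3, and Egr1 spans 29.7 to 176 CPM in GZM.

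Fosl1 (ENSRNOG00000020552, given in the table on chromosome 1 from 220826560 to 220835066, plus strand) encodes Fra-1, a Fos protein without the transactivation domain of Fos that is typical of migrating and transformed cells. It had 1.40, 4.62 and 2.43 CPM in GZM 1, 2 and 3, against 40.7, 86.1 and 27.7 CPM in GM 1, 2 and 3. Every GZM library was below every GM library, and within each group the highest library was about as far above the lowest, 3.29-fold in GZM and 3.11-fold in GM. The raw counts were 14, 49 and 31 in GZM 1, 2 and 3 and 845, 2023 and 539 in GM 1, 2 and 3. The log2 fold change was -4.19 ± 0.55 (SE, edgeR adjusted p = 0.0024), the 78th largest fall among the 14298 genes tested. GM 2, the library with the most Fosl1, moved this most: without it the log2 fold change was -3.59 (edgeR adjusted p = 0.00512). Within GM the order GM 2, GM 1, GM 3 was also that of the summed cycling-cell genes (1142, 877 and 475 CPM) and the reverse of that of the summed hepatocyte markers (14916, 19567 and 52056 CPM), and 26.8% of all genes tested had this order.

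Fosb (ENSRNOG00000046667, chromosome 1 from 80214494 to 80221710, minus strand), whose protein FosB is a strong transactivator, was a low gene that fell as well. It had 1.70, 1.89 and 0.785 CPM in GZM 1, 2 and 3 and 5.02, 8.17 and 7.45 CPM in GM 1, 2 and 3. The groups did not overlap, although the GZM values rest on only 17, 20 and 10 counts. The log2 fold change was -2.25 ± 0.40 (SE, edgeR adjusted p = 0.00459).

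Fos and Fosl2, the remaining Fos family genes, did not pass. Fos (ENSRNOG00000008015, chromosome 6 from 109300433 to 109303299, plus strand), the immediate early gene that gave the family its name, had 4.41, 4.24 and 5.26 CPM in GZM 1, 2 and 3 and 6.94, 5.19 and 7.81 CPM in GM 1, 2 and 3. Its groups overlapped only through GZM 3 and GM 2 (log2 fold change -0.52 ± 0.27 SE, edgeR adjusted p = 0.153). Fosl2 (ENSRNOG00000052357, chromosome 6 from 25598936 to 25616995, minus strand), which encodes Fra-2, had 2.41, 3.21 and 2.75 CPM in GZM 1, 2 and 3 and 5.45, 2.89 and 2.98 CPM in GM 1, 2 and 3. GM 1 was high and the other 5 libraries lay together (-0.44 ± 0.36 SE, edgeR adjusted p = 0.347). With library totals both passed as lower, Fos at -1.33 (edgeR adjusted p = 0.00371) and Fosl2 at -1.29 (edgeR adjusted p = 0.0175), a scale on which the median of all genes was -0.92.

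Jun (ENSRNOG00000026293, chromosome 5 from 114011189 to 114014277, minus strand), the central AP-1 subunit, varied little within either group. It had 224, 257 and 216 CPM in GZM 1, 2 and 3 and 116, 119.6 and 109 CPM in GM 1, 2 and 3. All 3 GZM libraries were above all 3 GM libraries (log2 fold change 1.01 ± 0.16 SE, edgeR adjusted p = 0.00343). Jund (ENSRNOG00000019568, chromosome 16 from 20485029 to 20486707, minus strand), the Jun protein typical of resting cells, had 73.2, 103 and 90.4 CPM in GZM 1, 2 and 3 and 36.6, 40.3 and 53.7 CPM in GM 1, 2 and 3. These groups did not overlap either (1.03 ± 0.20 SE, edgeR adjusted p = 0.00627). Neither rise passed with library totals, where Jun was at 0.17 (edgeR adjusted p = 0.437) and Jund at 0.21 (edgeR adjusted p = 0.322), each above the median of all genes on that scale.

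Junb (ENSRNOG00000042838, chromosome 19 from 26092974 to 26094756, minus strand), which encodes a weaker transactivator that can oppose Jun, had 65.6, 134 and 106 CPM in GZM 1, 2 and 3 and 67.1, 84.2 and 70.6 CPM in GM 1, 2 and 3. GZM 1 was the lowest of all 6 libraries and GZM 2 the highest, so the groups overlapped (0.46 ± 0.26 SE, edgeR adjusted p = 0.181). The direction turned to -0.38 with library totals (edgeR adjusted p = 0.231), and without GZM 1 Junb passed as higher (0.71, edgeR adjusted p = 0.033).

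**Figure D2:**
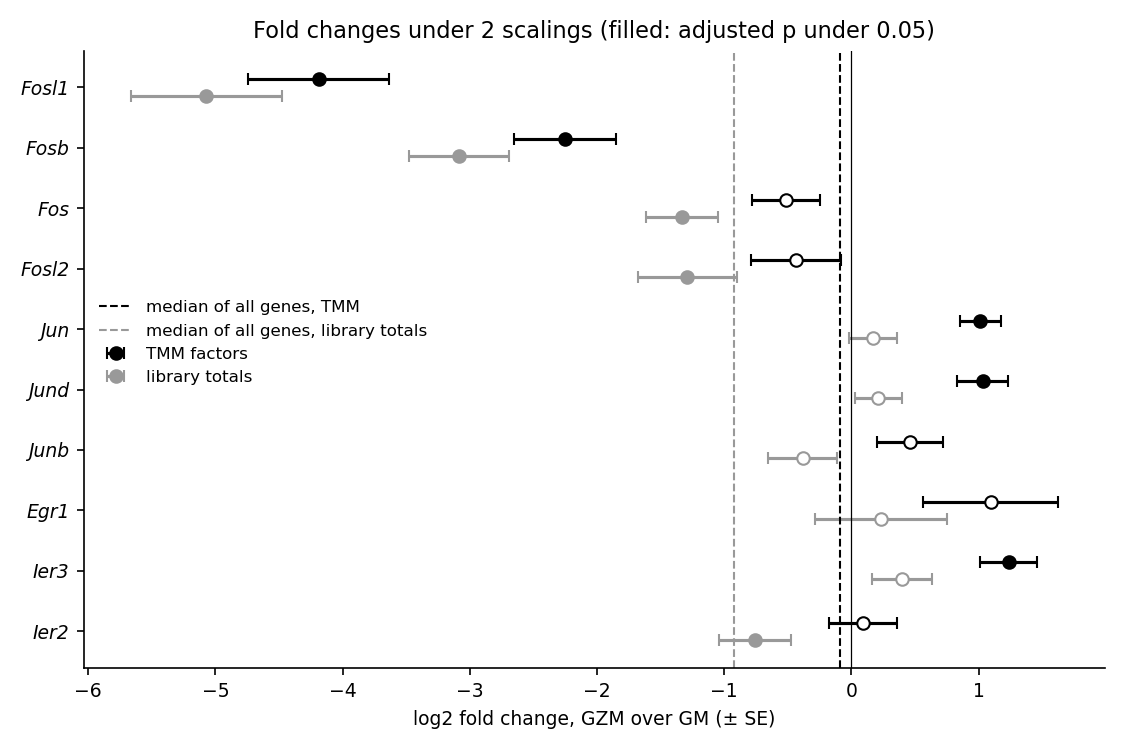
log2 fold change, GZM over GM, with its standard error (x axis), for the 10 genes (y axis) with TMM factors (black) and with library totals (grey). Filled points passed at an adjusted p under 0.05 and dashed lines give the median of all genes on each scale, -0.09 and -0.92. Fosl1 and Fosb are far below both lines on both scales, and Jun, Jund and Ier3 lie above them but pass with TMM factors only.

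A comparison within a library does not depend on the scaling between libraries. The summed FPKM of the 4 Fos family genes came to 4.79, 4.68 and 4.75 for each 100 FPKM of the 3 Jun family genes in GZM 1, 2 and 3, and to 38.7, 55.6 and 25.8 in GM 1, 2 and 3. The GZM libraries hardly differed among themselves and all lay below all GM libraries. The sums themselves, unlike their ratio, do depend on that scaling. FPKM is scaled by library totals without TMM factors, a scale on which the median log2 fold change of all genes was -0.92. On it summed Jun family FPKM overlapped, with a mean of 138 ± 22.5 for GZM and 139.7 ± 15.3 for GM. With TMM factors Jun and Jund were 2.02-fold and 2.04-fold higher in GZM. Summed Fos family FPKM, also on the scale of library totals, did not overlap, with a mean of 6.55 ± 0.997 for GZM and 57.5 ± 27.4 for GM (SD over 3 libraries). These sums were formed with the members' values known and carry no test.

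The make-up of the Fos family differed too. Fosl1 made up 18.5% ± 7.89 of summed Fos family FPKM in GZM and 70.1% ± 12.9 in GM, Fos 34.0% ± 6.92 in GZM and 11.6% ± 6.24 in GM, and Fosl2 42.9% ± 1.15 in GZM and 13.5% ± 6.64 in GM (SD over 3 libraries). For all 3 the groups did not overlap, whereas the Fosb share was 4.55% ± 1.92 in GZM and 4.79% ± 2.10 in GM and overlapped. Shares of a sum are tied to each other, so with a lower Fosl1 share the other shares together had to be higher. Fos and Fosl2 themselves were not higher in GZM (log2 fold changes of -0.52 and -0.44 on the TMM scale, neither passing). Within the Jun family the Junb share was 30.2% ± 5.41 in GZM and 39.6% ± 3.04 in GM without overlap, and the shares of Jun (41.2% ± 5.43 in GZM, 35.7% ± 2.87 in GM) and Jund (28.6% ± 0.758 in GZM, 24.7% ± 4.50 in GM) overlapped. Shares of Fosl2 depend on its exon length in the table, 744 bases, the shortest of the 10. Per 100 Jun counts, which needs no exon length, Fosl1 had 0.627, 1.80 and 1.13 counts in GZM 1, 2 and 3 and 35.1, 72.0 and 25.4 in GM 1, 2 and 3. On the same measure Fos had 1.65 to 2.44 counts in GZM and 4.34 to 7.16 in GM, and Fosl2 had 1.07 to 1.27 in GZM and 2.42 to 4.70 in GM. Per Jun count of the same library, the 4 Fos family genes, Junb and Ier2 were lower in every GZM library than in any GM library. Of the 14297 other genes tested 69.4% were too, Jun being itself higher in GZM on the TMM scale, so this separation is near the background.

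**Figure D3:**
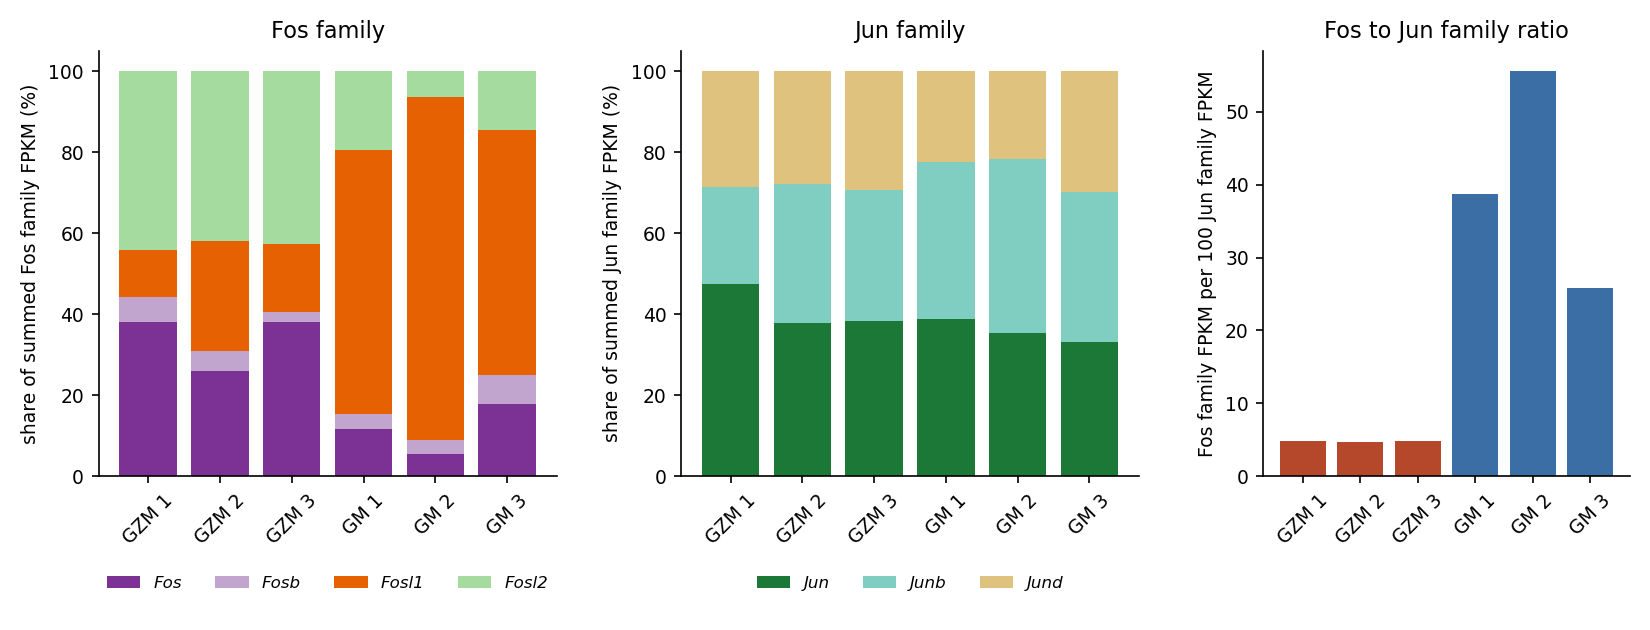
Left and middle, the share of summed family FPKM (y axis, percent) taken by each Fos family and each Jun family gene in the 3 GZM and 3 GM libraries (x axis). Right, summed Fos family FPKM per 100 FPKM of the Jun family. Fosl1 holds 60.4% to 84.7% of the Fos family in GM and 11.6% to 27.1% in GZM, and the ratio is 4.68 to 4.79 in GZM and 25.8 to 55.6 in GM.

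By FPKM the place of Fosl1 among the 10 differed most between the groups, the ninth in GZM and the third in GM. In GZM the order of mean FPKM was Jun (56.2), Junb (42.6), Jund (39.6), Ier3 (34.2), Egr1 (24.2), Ier2 (21.7), Fosl2 (2.80), Fos (2.20), Fosl1 (1.26) and Fosb (0.29). Neighbours in that order overlapped between libraries except Jun over Junb, Ier2 over Fosl2 and Fosl1 over Fosb. In GM it was Junb (55.6), Jun (49.9), Fosl1 (42.6), Ier2 (36.6), Jund (34.15), Ier3 (26.0), Egr1 (20.6), Fosl2 (6.88), Fos (5.54) and Fosb (2.45). There the neighbours that did not overlap were Jund over Ier3, Egr1 over Fosl2 and Fos over Fosb. Ranked by FPKM among all genes of a library, Fosl1 stood at percentile 60.3 to 68.9 in GZM and 87.6 to 96.2 in GM, and Jun at 96.3 to 96.8 in GZM and 94.1 to 95.0 in GM.

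Outside the AP-1 subunits, Ier3 rose and Egr1 and Ier2 did not pass. Ier3 (ENSRNOG00000000827, chromosome 20 from 3438798 to 3440769, minus strand), a stress-induced gene known for a role in cell survival, had 40.9, 76.1 and 59.2 CPM in GZM 1, 2 and 3 and 25.2, 24.0 and 25.7 CPM in GM 1, 2 and 3. The GM libraries were nearly equal and all GZM libraries lay above them (log2 fold change 1.23 ± 0.22 SE, edgeR adjusted p = 0.00489; 0.40 with library totals, edgeR adjusted p = 0.159). Ier2 (ENSRNOG00000054344, chromosome 19 from 25774143 to 25775659, minus strand), an early response gene that lies near Junb on chromosome 19, had 28.1, 59.5 and 40.6 CPM in GZM 1, 2 and 3 and 36.1, 46.7 and 37.4 CPM in GM 1, 2 and 3. GZM 1 was below and GZM 2 above all GM libraries (0.09 ± 0.27 SE, edgeR adjusted p = 0.795). With library totals Ier2 turned to -0.76 (edgeR adjusted p = 0.0386), and without GZM 2 to -0.21 (edgeR adjusted p = 0.53). Per 100 Ier2 counts, Ier3 had 145.7, 128 and 145.8 counts in GZM 1, 2 and 3 and 69.8, 51.4 and 68.5 in GM 1, 2 and 3, so this ratio separated the groups within libraries. It carries no test and has no share of all genes beside it. Per 100 Jun counts Ier3 overlapped, with 18.3 to 29.6 counts in GZM and 20.1 to 23.5 in GM.

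Egr1 (ENSRNOG00000019422, chromosome 18 from 27657628 to 27661429, plus strand), the zinc finger factor whose 2 CArG boxes are printed above, varied most between replicates. It had 29.7, 176 and 100.1 CPM in GZM 1, 2 and 3 and 45.5, 57.9 and 39.6 CPM in GM 1, 2 and 3. GZM 1 was below every GM library and GZM 2 and GZM 3 were above them all. The highest GZM library was 5.93-fold above the lowest, against a median of 1.34-fold over all genes tested, and 1.46-fold for Egr1 in GM. The log2 fold change was 1.10 ± 0.53 (SE, edgeR adjusted p = 0.128). It was 1.54 without GZM 1, where it passed (edgeR adjusted p = 0.00975), and 0.46 without GZM 2 (edgeR adjusted p = 0.486). With library totals it was 0.23 (edgeR adjusted p = 0.702).

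The spread within GZM had a shared shape. For 7 of the 10 members (Fosl1, Fosl2, Junb, Jund, Egr1, Ier2 and Ier3) GZM 2 was the highest and GZM 1 the lowest GZM library, an order found for 18.1% of all genes tested and for 14 of 30 other immediate early genes. Jun and Fosb also had GZM 2 highest, with GZM 3 lowest, and Fos had GZM 3 highest. This pattern was noticed after the values were seen, and its cause was not tested. Some marker sums, but not all, also set GZM 1 apart from GZM 2 and GZM 3. It was the highest of the 3 for T-cell markers (256 CPM, against 89.0 and 107 CPM in GZM 2 and 3), for stellate cell and fibroblast markers (3880 CPM, against 2333 and 1709 CPM) and for macrophage markers (2105 CPM, against 1520 and 1811 CPM). It was the lowest for bile duct markers (118 CPM, against 185 and 194 CPM) and for neutrophil markers (52.2 CPM, against 76.4 and 89.0 CPM). For hepatocyte markers GZM 1 was close to GZM 2, and GZM 3 was lower (139354, 138896 and 118685 CPM in GZM 1, 2 and 3). For endothelial markers GZM 1 lay between the others (377, 345 and 411 CPM), and cycling-cell genes differed little (194, 215 and 207 CPM).

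Genes whose levels followed a member most closely over the 6 libraries were found by the mean absolute difference of log2 CPM profiles, each centred on its own mean, among 12869 other genes with a symbol. For Fos these were Otulinl (0.04 log2 units), Nab2 (0.05) and Stx6 (0.06). Nab2 encodes a corepressor of Egr1 and its relatives. For Jun they included Mt-nd3 (0.04), a mitochondrially encoded subunit of respiratory complex I, and Dhrs1 (0.05). The Egr1 profile had no such close match, and the nearest genes, Zfp622 (0.19), Rab19 (0.22) and Cd151 (0.24), were further away.

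Other immediate early genes split in both directions. Of 30 tested (31 in the list, Egr4 below the filter), 4 rose and 7 fell, or 36.7% called against 44.0% of all genes (median -0.25 on the log2 scale). With library totals 2 rose and 20 fell, on a scale where 9.20% of all genes rose and 59.5% fell. Btg2, an antiproliferative gene, had 101, 190.3 and 139 CPM in GZM 1, 2 and 3 and 37.1, 26.9 and 41.0 CPM in GM 1, 2 and 3 (2.04 ± 0.27 SE, edgeR adjusted p = 0.0024). Zfp36, which encodes tristetraprolin, a protein that speeds the decay of short-lived mRNAs, was 2.46-fold higher. Klf4, a Krüppel-like factor, had 11.9, 13.2 and 12.7 CPM in GZM 1, 2 and 3 and 53.1, 106 and 42.4 CPM in GM 1, 2 and 3 (-2.41 ± 0.34 SE, edgeR adjusted p = 0.00257). Socs3, the feedback inhibitor of STAT3 signalling, was 2.00-fold lower. Zfp36 and Btg2 were higher, and Klf4 and Socs3 lower, in every GZM library than in any GM library. The number called dropped to 7 without GZM 2, without GZM 3 or without GM 1, fits for which no share of all genes was worked out.

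Among 14 other basic leucine zipper genes that pair with or compete with AP-1, 2 rose and 6 fell, or 57.1% called against 44.0% of all genes (median -0.45). With library totals, where 68.7% of all genes passed, 2 rose and 10 fell. The risers were Crem, a cyclic AMP-responsive modulator, at 83.8 ± 9.31 CPM in GZM and 26.1 ± 3.13 CPM in GM (SD over 3 libraries; log2 fold change 1.69 ± 0.16 SE, edgeR adjusted p = 0.00192), and Nfil3, a repressor linked to the circadian clock (3.10-fold higher). Batf2, an interferon-induced Jun partner, was 4.49-fold lower and Atf7, a relative of Atf2, 3.55-fold lower. The split changed with the libraries used. It was 3 higher and 3 lower without GZM 1 and 2 higher and 2 lower without GZM 2. Without GM 1, 5 were called. Fits with 1 library left out have no share of all genes beside them, so these changes may not be particular to this list.

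Signalling genes upstream of AP-1 were called in both directions. Of 21 kinases and serum response factor partners tested (22 in the list, 1 not matched), 3 rose and 3 fell, or 28.6% called against 44.0% of all genes (median -0.17). With library totals 1 rose and 16 fell, on a scale where 9.20% of all genes rose and 59.5% fell. With limma voom and quality weights 12 of the 21 passed, and no share of all genes was worked out for that setting. Mapk9, which encodes the Jun kinase JNK2, had 159, 341 and 294 CPM in GZM 1, 2 and 3 and 71.6, 54.9 and 69.7 CPM in GM 1, 2 and 3, the groups being well apart (2.02 ± 0.30 SE, edgeR adjusted p = 0.00285). Map2k2, the ERK kinase MEK2, was 2.22-fold higher but did not pass with library totals (log2 fold change 0.32, edgeR adjusted p = 0.109). The ribosomal S6 kinase gene Rps6ka3 was 2.38-fold lower and Elk3, a serum response factor partner, 1.80-fold lower.

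Feedback inhibitors of this signalling and genes of mRNA and protein turnover were also called in both directions. Of 15 tested, 8 fell and 3 rose, or 73.3% called against 44.0% of all genes (21.7% lower, 22.2% higher). The list median was -0.59. With library totals 9 fell and the other 6 did not pass. On that scale 59.5% of all genes fell, so this number is near the background. Dusp4, a phosphatase that inactivates nuclear MAP kinases, had 4.81, 4.90 and 3.38 CPM in GZM 1, 2 and 3 and 27.6, 48.9 and 15.9 CPM in GM 1, 2 and 3, with no overlap (-2.82 ± 0.42 SE, edgeR adjusted p = 0.00293). The Ras pathway inhibitors Spred1 and Spred2 were 2.88-fold and 3.40-fold lower, the call of Spred2 being lost without GZM 2 (edgeR adjusted p = 0.0519). Zfp36l1, a relative of tristetraprolin, was 2.31-fold higher and did not pass with library totals (log2 fold change 0.38, edgeR adjusted p = 0.162). The split was even without GZM 1 (4 higher, 4 lower). The number called was 3 without GZM 2 (1 higher, 2 lower), 6 without GZM 3 (1 higher, 5 lower) and 5 without GM 1 (1 higher, 4 lower). Counts with a library left out have no share of all genes beside them here either.

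The genes listed as AP-1 targets that passed the test on the TMM scale fell. Of 16 tested (17 in the list, Areg below the filter), 10 fell and the other 6 did not pass, or 62.5% called against 44.0% of all genes, of which 21.7% fell (median -1.05). Of those 6, Mmp9 (0.09) and Hmox1 (0.01) had log2 fold changes near 0, and are named here because of these values. With library totals 14 fell, on a scale where 59.5% of all genes fell. The number called was 7 without GZM 1 or without GZM 3, 8 without GZM 2 or without GM 1, and 5 at an adjusted p under 0.01. Without GM 3 it was 10, with 1 higher and 9 lower. Neither the counts with a library left out nor that at the stricter threshold has a share of all genes beside it. Ccl2, the monocyte-attracting chemokine, had 25.2, 32.1 and 27.9 CPM in GZM 1, 2 and 3 and 144, 235 and 108 CPM in GM 1, 2 and 3 (-2.52 ± 0.30 SE, edgeR adjusted p = 0.00218). Cd44, the hyaluronan receptor, had 78.5, 79.2 and 79.1 CPM in GZM 1, 2 and 3 and 258, 323 and 224 CPM in GM 1, 2 and 3 (-1.76 ± 0.19 SE, edgeR adjusted p = 0.00197). The matrix-degrading stromelysin gene Mmp3 was 6.41-fold lower and Tgfb1, a growth factor gene, 1.85-fold lower. Ccl2 and Cd44 had the order GM 2, GM 1, GM 3 seen for Fosl1, whereas Mmp3 and Tgfb1 did not. Of the 16 targets tested 6 had this order, against 26.8% of all genes tested. All 4 named targets were lower in every GZM library than in any GM library. These genes are also expressed by macrophages and fibroblasts. Of 8 macrophage markers 5 fell and 1 rose, and of 6 stellate cell and fibroblast markers 1 fell and 1 rose. All 7 cycling-cell genes fell and 9 of 10 hepatocyte markers rose, where 21.7% of all genes fell and 22.2% rose. Whether tissue composition had a part in the falls of the AP-1 targets was not tested.

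**Figure D4:**
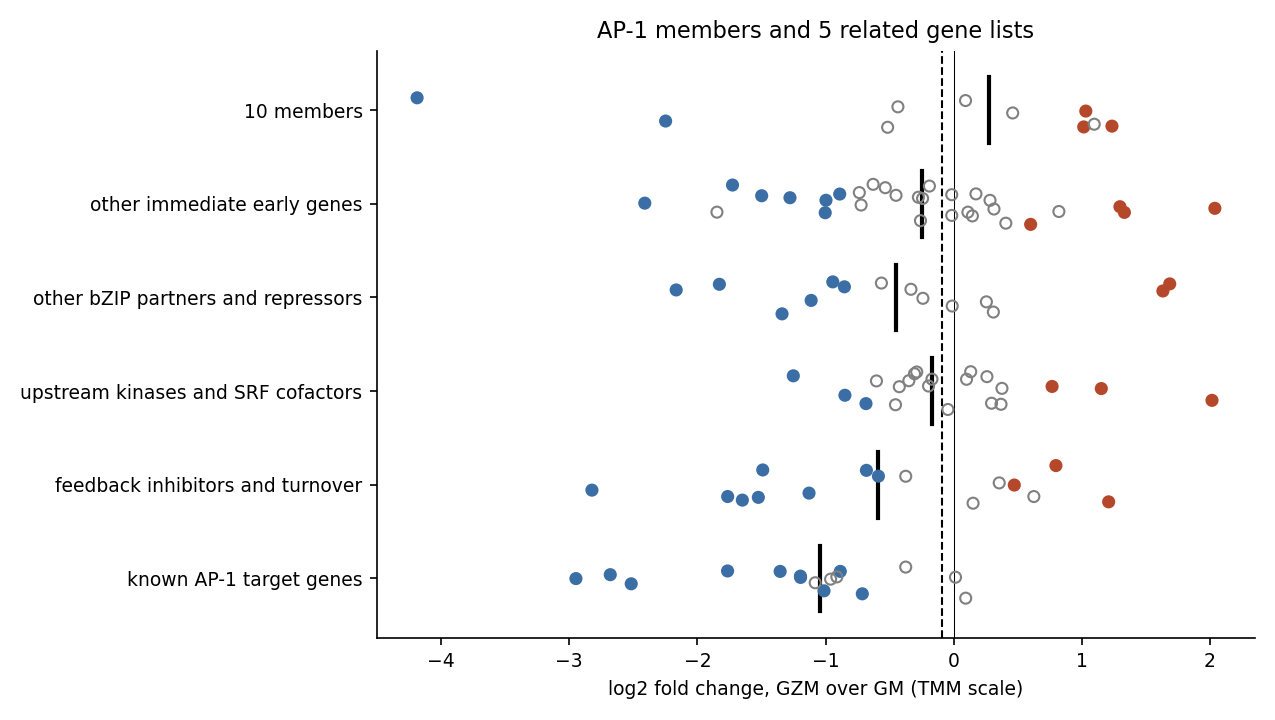
log2 fold change, GZM over GM, on the TMM scale (x axis) for the 10 members and the 5 related gene lists (y axis). Filled points passed at an adjusted p under 0.05 (red higher, blue lower), open points did not, thick bars are list medians and the dashed line is the median of all genes, -0.09. The AP-1 target list has its median at -1.05 and no filled point to the right of 0.

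**Figure D5:**
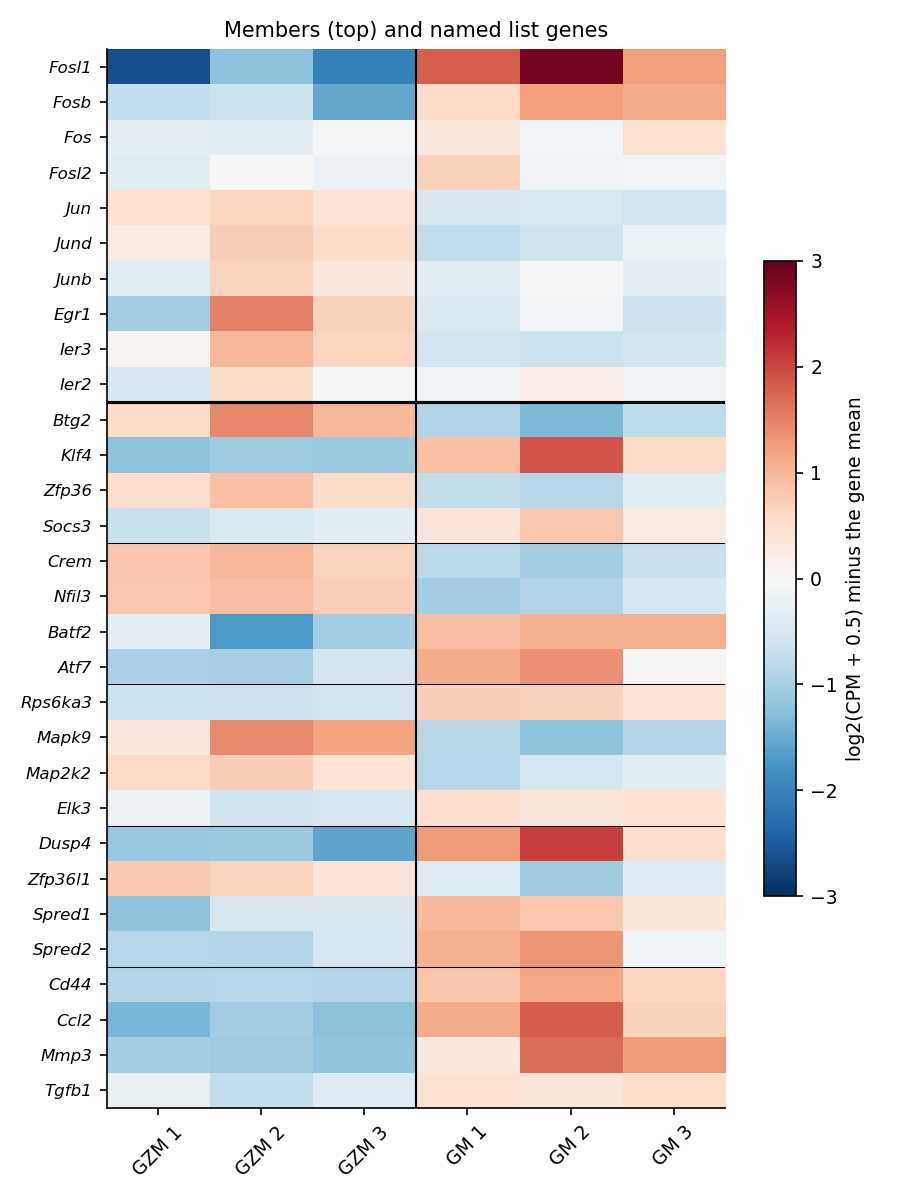
Level of each member (above the thick line) and of the 20 named list genes (below it, 4 from each list) in the 3 GZM and 3 GM libraries, as log2(CPM + 0.5) minus the gene's mean over the 6 libraries (colour). Fosl1, Klf4, Dusp4 and Ccl2 are highest in GM 2, and Egr1 is lowest in GZM 1.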

How the data were processed

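Libraries were poly(A)-selected and strand-specific, per the labels' protocols. Genes were counted by the authors, and the deposited counts are whole numbers without normalization. The aligner, the counter and any use of strand in counting were not given in the sources used here, so overlapping and antisense genes are uncertain. The deposited FPKM values equal the counts per exon length and library total (all 195738 within 0.01). The table's gene positions are printed as given. The submitters' processing notes name mRatBN 7.2, but the positions reach 282724300 on chromosome 1, past the end of that chromosome in mRatBN 7.2, so they are not all of that build, and no source used here names another. GZM columns spell the group ZGM.

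Counts were tested with edgeR 4.0.16 (R 4.3.3; quasi-likelihood, TMM factors, default low-count filter, no covariate) with Benjamini-Hochberg adjustment over 14298 genes. The code was tested on simulated data. Other settings used DESeq2 1.42.0, limma 3.58.1 voom with quality weights, library totals, median-of-ratios factors and left-out libraries. Replicate pairs differed beyond sampling noise (chi-square per degree of freedom from 10.5 to 194). Members and lists were chosen with earlier results of these data known. All members were named, and from each list the 4 called genes of smallest p. Motif searches used RefSeq promoters. Figures used matplotlib 3.10.9. A gene with a profile near that of Jun is not reported here.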

Additional observations from a re-analysis of the deposited data

How the results depend on the processing

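Of 130 fold changes of the members under other settings, 115 kept their direction and their side of the threshold. A further 3 lost and 9 gained a call with their direction kept, and 3 reversed. The 3 lost calls were Jun, Jund and Ier3 with library totals. The reversals were Junb (-0.38) and Ier2 (-0.76) with library totals and Ier2 (-0.21) without GZM 2. The range of Ier2 on leaving out any 1 library was -0.21 to 0.33. Besides reversing, Ier2 with library totals gained a call (edgeR adjusted p = 0.0386). The number of members called was 5 to 7 on leaving out any 1 library, 7 without both GM 3 and GZM 1, and 8 with limma voom and quality weights. Shares of all genes called were worked out only for the TMM scale and library totals, so these counts have no background beside them. Of 96 pathway genes tested 46 were called, on a scale where 44.0% of all genes were. With library totals 74 were called, where 68.7% of all genes were. The number was 22 at an adjusted p under 0.01 and 27 to 46 on leaving out any 1 library (27 without GZM 2), again with no share of all genes beside it. The fold changes of the 20 named pathway genes, settings added after seeing the data, kept direction and call in 257 of 260 cases. Those genes were picked for the smallest p in each list, which favours stable calls, so this says nothing of the other list genes. Same-numbered libraries did not deviate together (correlations of -0.14, 0.16 and -0.27 for numbers 1, 2 and 3). With the replicate number as a block 5 members and 37 pathway genes were called, and no member changed its call. Depth limits Fosb most, with 47 counts over the GZM libraries. The cause of these shifts was not tested.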
